A study of Mus musculus with 96 samples.

Results

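Acetylcholine is made, packed, recycled and broken down by the products of a few genes, and 4 of them were followed here through single neurons of the mouse lateral superior olive (LSO). They are Chat (choline acetyltransferase), Slc18a3 (the vesicular acetylcholine transporter), Slc5a7 (the high-affinity choline transporter of the cell membrane) and Ache (acetylcholinesterase). The genes were chosen by their symbols, and 3 of the 4 were matched to a row among the 38887 genes of the expression table. Slc18a3 was not analysed here beyond its position in the genome. The LSO, an auditory brainstem nucleus, holds principal neurons (pLSOs), which compare the input of both ears and project upwards, and lateral olivocochlear neurons (LOCs), which send axons down to the cochlea. In patch-seq, a neuron is first recorded in the whole-cell configuration and its cytoplasm is then aspirated into the pipette and sequenced. The neurons came from juvenile C57BL/6J mice of both sexes around hearing onset, no genetic change or treatment is named for any group, and the labels give 3 firing patterns, pLSO_Onset, pLSO_Sustained and LOC_Delayed. After 8 libraries with doubtful labels had been left out, 80 neurons remained, of which 28 were LOCs and 52 were pLSOs (41 Onset and 11 Sustained). Beside them stood 8 negative controls, pipettes that had touched the slice and were processed like neurons.

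Chat joins choline with the acetyl group of acetyl-CoA in the axon terminal, and Slc18a3 moves the product into synaptic vesicles. After release, acetylcholinesterase splits the transmitter in the synaptic cleft, and Slc5a7 returns the choline to the terminal, a step that limits the rate of synthesis. Chat, Slc18a3 and Slc5a7 mark a cholinergic neuron, whereas Ache is also made by neurons that receive cholinergic input. LOCs are described as predominantly cholinergic neurons that contain neuropeptides and further transmitters. They arise from the progenitors of facial motoneurons, and the transcription factors Isl1, Gata2 and Gata3 take part in that lineage.

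Of the 4 genes, Chat and Slc18a3 form the cholinergic gene locus. In Gencode vM21 (GRCm38), Chat lies on the minus strand at chr14:32408203-32465989, and Slc18a3 lies on the same strand at chr14:32462438-32464850. Among 8 annotated transcripts of Chat, 4 span Slc18a3, and in each of these the whole single-exon gene sits in intron 1 and shares no exon base with Chat. The 5′ ends of both genes are 1139 bases apart. Slc5a7 is at chr17:54273590-54299034 on the minus strand, with 3 transcripts. Ache is at chr5:137287519-137294466 on the plus strand, with 9 transcripts. The lincRNA Gm42456 on the opposite strand shares 98 exon bases with Ache and was not analysed here. Smart-seq2 reads carry no strand, so reads in that stretch cannot be told apart. Gm2990, an antisense gene that runs over the 5′ end of Chat, was at 0 TPM in all 28 LOCs and all 52 pLSOs and shares no exon base with Chat.

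The sequences before the annotated starts are shown because Isl1 and Gata3, whose products bind DNA, were each detected in 22 of 28 LOCs. They are the 250 bases before the RefSeq start on GRCm38.p6, read 5′ to 3′ on the strand of the gene, at chr14:32465910-32466159 for Chat, chr14:32464851-32465100 for Slc18a3, chr17:54299035-54299284 for Slc5a7 and chr5:137288004-137288253 for Ache. Capitals mark TAAT, the core of homeodomain sites, and GATA, the core of GATA factor sites, on either strand.
Chat: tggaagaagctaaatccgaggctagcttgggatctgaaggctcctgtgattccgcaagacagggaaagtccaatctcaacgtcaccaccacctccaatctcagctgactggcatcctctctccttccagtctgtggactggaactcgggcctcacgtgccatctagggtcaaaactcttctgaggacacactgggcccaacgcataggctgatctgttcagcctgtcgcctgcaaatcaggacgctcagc
Slc18a3: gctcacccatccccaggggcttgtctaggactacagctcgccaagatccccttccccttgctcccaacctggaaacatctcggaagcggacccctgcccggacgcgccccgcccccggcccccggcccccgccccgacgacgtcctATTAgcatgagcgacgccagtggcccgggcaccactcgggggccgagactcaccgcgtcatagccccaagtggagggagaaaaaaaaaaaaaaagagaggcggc
Slc5a7: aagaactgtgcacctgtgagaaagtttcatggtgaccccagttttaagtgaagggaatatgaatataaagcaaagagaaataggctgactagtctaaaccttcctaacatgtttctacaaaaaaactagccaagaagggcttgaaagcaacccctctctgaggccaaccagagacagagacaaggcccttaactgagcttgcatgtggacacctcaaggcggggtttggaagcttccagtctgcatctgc
Ache: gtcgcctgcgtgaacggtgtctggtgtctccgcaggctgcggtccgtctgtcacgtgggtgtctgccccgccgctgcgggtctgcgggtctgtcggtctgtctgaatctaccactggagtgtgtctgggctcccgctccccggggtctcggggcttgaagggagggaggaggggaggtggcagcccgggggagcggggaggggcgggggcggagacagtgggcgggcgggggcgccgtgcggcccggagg
Slc18a3 held 1 TAAT match, on the opposite strand, which began 104 bases before the start, and 54.9% of 32851 promoter windows of this length held at least 1. No GATA match was found in these 4 windows, where 53.6% of all windows held one. The longer letters CTAATG and AGATAA, in 6.36% and 9.99% of all windows, were absent from the 4 windows as well. When the window was extended to 50 bases after the start, Slc5a7 had 1 AGATAA match, on the strand of the gene, which also counts as its GATA match. Base composition differed widely, with 73.6% G and C before Ache, 66% before Slc18a3, 54.8% before Chat and 45.6% before Slc5a7, against a median of 52.4% over all windows. These matches are letters in a window and say nothing about binding.

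A gene was counted as detected at 1 TPM or more, TPM being reads per gene length that the authors scaled to a fixed library total. The neurons had between 1175 and 6276 detected genes (median 2495.5), with medians of 2488 in Onset, 2618 in Sustained neurons and 2394 in LOCs, and the negative controls had 285 to 1271. Of 6 markers of each class, which the study chose on these libraries, LOCs held a median of 5 LOC and 1 pLSO markers, and pLSOs 0 LOC and 5 pLSO markers. In 2 LOCs, cell_57 and cell_76, the markers Calca, Ucn and Isl1 were at 0, and the Sustained neuron cell_45 had the most detected genes of all. Shares of the members and of their combinations are therefore also given without these 3 neurons. As no label ties a neuron to a mouse, a group is 1 sample, and groups were compared without a test. Shares of neurons carry the exact Clopper-Pearson 95% interval, which covers counting error only. A share of 0 carries the limit of 3 neurons over n. The scale of TPM changes along the table, so levels are compared only within a gene. Sums over marker genes of other cell types mix these scales.

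Chat was found in LOCs alone among these libraries, and in few of them. It was detected in 5 of 28 LOCs (17.9%, 6.06 to 36.9%), in 0 of 52 pLSOs (which allows a share of up to 5.77%) and in 0 of 8 negative controls (up to 37.5%). The 5 values were 136 TPM in cell_86, 169 TPM in cell_66, 333 TPM in cell_67, 421 TPM in cell_74 and 770 TPM in cell_70. There was no value between 0 and 136 TPM, so a LOC either had a high Chat value or was listed at 0. Each value was at least 56.3 times the smallest value that the same library held in the 401 neighbouring rows, a measure of what the fewest reads of a gene were worth. The mean over all LOCs was 65.3 TPM, and 39.2 TPM without cell_70. Over 28 LOCs, the Spearman correlation with the number of detected genes was -0.03 for Chat, 0.14 for Slc5a7 and 0.38 for Ache.

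Of the 3 members, Slc5a7 differed most in its share of LOCs and pLSOs at 1 TPM or more. It was detected in 15 of 28 LOCs (53.6%, 33.9 to 72.5%), in 3 of 52 pLSOs (5.77%, 1.21 to 15.9%) and in 0 of 8 negative controls (up to 37.5%). Among all 28 LOCs the lowest value was 0, the median 2 and the highest 594 TPM. The LOC values fell into a low range of 1, 3, 4, 5 and 7 TPM and a range from 34 TPM in cell_86 to 594 TPM in cell_58, with 6 neurons at 300 TPM or more. In 4 of the 15 LOCs the value was at most 3 times the smallest neighbouring value, as was the case for both Onset neurons with Slc5a7, cell_16 (1 TPM) and cell_28 (2 TPM). The remaining pLSO with Slc5a7 was cell_45, a Sustained neuron with 69 TPM and 6276 detected genes, in which summed oligodendrocyte and microglia markers reached 4632 and 1355 TPM. Without it, 2 of 51 pLSOs held Slc5a7 (3.92%). At 10 TPM or more, 10 of 28 LOCs (35.7%, 18.6 to 55.9%) and 1 of 52 pLSOs (1.92%, 0.0487 to 10.3%) remained. The mean was 104 TPM in LOCs (85.7 TPM without the highest neuron) and 1.38 TPM in pLSOs (0.0588 TPM without cell_45).

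**Figure D1:**
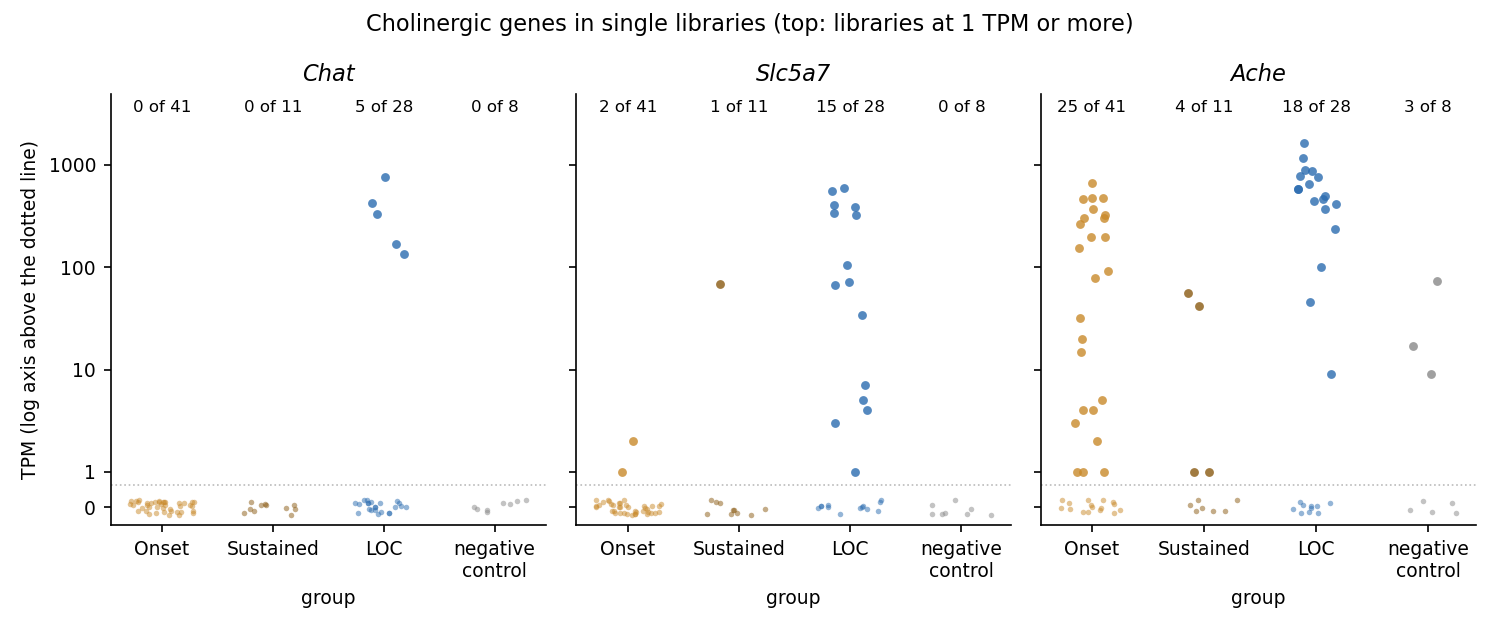
TPM of Chat, Slc5a7 and Ache in each library (1 point per library, log axis above the dotted line, libraries at 0 below it), by group. The 5 Chat values of LOCs lie between 136 and 770 TPM with no value in any other group, Slc5a7 is found in 15 of 28 LOCs and 3 of 52 pLSOs, and Ache is found in all 4 groups.

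Ache was detected in both classes, and the classes differed in its level more than in its share. It was detected in 18 of 28 LOCs (64.3%, 44.1 to 81.4%) and in 29 of 52 pLSOs (55.8%, 41.3 to 69.5%), or 29 of 51 without cell_45 (56.9%). Onset neurons held it in 25 of 41 cases (61.0%, 44.5 to 75.8%) and Sustained neurons in 4 of 11 (36.4%, 10.9 to 69.2%). In LOCs the lowest value was 0, the median 306.5 and the highest 1646 TPM (cell_74), and among the 18 LOCs with Ache the values ran from 9 to 1646 TPM with a median of 540.5 TPM. In Onset neurons the lowest value was 0, the median 3 and the highest 664 TPM (cell_28), and the median of the 25 with Ache was 91 TPM. The 4 Sustained neurons with Ache had 1, 1, 42 and 56 TPM. The ranges of LOCs and Onset neurons thus overlapped from 0 to 664 TPM, whereas all Sustained neurons lay below 100 TPM.

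At 100 TPM or more, Ache remained in 16 of 28 LOCs (57.1%, 37.2 to 75.5%), in 12 of 41 Onset neurons (29.3%, 16.1 to 45.5%) and in 0 of 11 Sustained neurons (which allows up to 27.3%). A value of 1000 TPM was passed by 2 LOCs, cell_69 (1164 TPM) and cell_74, and by none of 52 pLSOs (up to 5.77%). Negative controls held 9, 17 and 73 TPM of Ache in 3 of 8 libraries (37.5%, 8.52 to 75.5%), and each of these values was at most 2.13 times the smallest neighbouring value. In 10 of the 29 pLSOs with Ache the value was also at most 3 times the smallest neighbouring value, and in 0 of the 18 LOCs. The highest negative control was exceeded by 14 of 52 pLSOs (26.9%) and 16 of 28 LOCs (57.1%). The mean was 377 TPM in LOCs, 109 TPM in Onset neurons, 9.09 TPM in Sustained neurons and 12.4 TPM in the negative controls.

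**Figure D2:**
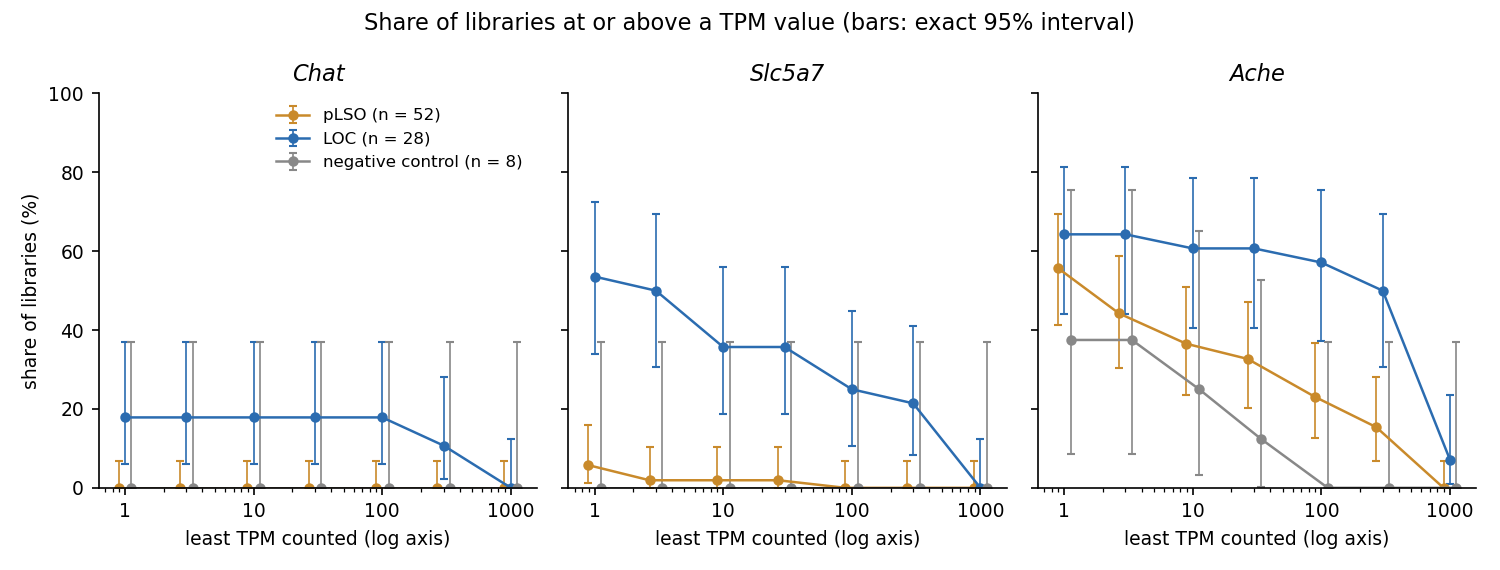
Share of libraries (%) in which Chat, Slc5a7 or Ache reached a TPM value (log axis), for pLSOs, LOCs and negative controls, with exact 95% intervals. The share of LOCs with Chat stays at 17.9% up to 100 TPM, and for Ache the shares of LOCs and pLSOs are 64.3% and 55.8% at 1 TPM and 57.1% and 23.1% at 100 TPM.

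On the scale of mean log2(TPM + 1), the LOC minus pLSO difference was 1.47 for Chat, 2.95 for Slc5a7 and 2.58 for Ache, so all 3 members were higher in LOCs by 1 or more. With a pseudocount of 10, Chat no longer reached 1 (0.89), and Ache (1.91) lay above Slc5a7 (1.60). Of 10319 genes detected in at least 5% of neurons, 4.68% were higher in LOCs by this much and 6.99% were higher in pLSOs, and the median difference over these genes was -0.07. Chat was detected in 5 of 80 neurons and passed the filter through LOCs only, so its difference could only be positive. Slc5a7, found in 3 of 52 pLSOs, passed the filter only with its 15 LOCs, so its place among the higher genes is a description as well. The SD over LOCs was 3.24 for Chat, 3.64 for Slc5a7 and 4.43 for Ache on this scale, larger than each difference, as many LOCs were at 0. Without cell_57 and cell_76, which have Ache values of 503 and 420 TPM, the difference of Ache was 2.32, that of Slc5a7 3.19 and that of Chat 1.58. Without cell_45, the differences of Slc5a7 and Ache were 3.07 and 2.52.

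Summed oligodendrocyte markers had a median of 283 TPM in pLSOs (0 to 12405 TPM), 994.5 TPM in LOCs (1 to 24108 TPM) and 2811.5 TPM in negative controls (54 to 41581 TPM). The median sum was higher in LOCs than in pLSOs, but such sums add genes on unlike TPM scales and follow the genes of largest values. By gene, the LOC minus pLSO difference was 1.02 for Mbp, 0.17 for Mag, 0.14 for Mobp, 0.11 for Mog and -0.22 for Cnp. All correlations with marker sums carry this limit. Over 28 LOCs, the Spearman correlation with summed oligodendrocyte markers was 0.06 for Chat, -0.07 for Slc5a7 and -0.11 for Ache. Summed astrocyte markers had medians of 42 TPM in LOCs and 35.5 TPM in pLSOs, and summed microglia markers 10 and 4 TPM. Over the same 28 LOCs, the correlation with astrocyte markers was -0.28 for Chat, 0.07 for Slc5a7 and -0.29 for Ache. With microglia markers it was 0.45 for Chat, -0.07 for Slc5a7 and -0.14 for Ache, so that Chat, found in 5 LOCs, had its highest value with the microglia list. The part of material from other cells in the class differences was not tested. Chat and Slc5a7 were at 0 in all 8 negative controls.

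Co-detection per neuron was more frequent in LOCs. Each single member also had a larger share in LOCs, and whether co-detection goes beyond those shares was not tested. Ache was found in 10 of the 15 LOCs with Slc5a7 (66.7%) and in 8 of the 13 without it (61.5%). At least 2 of the 3 members were found in 11 of 28 LOCs (39.3%, 21.5 to 59.4%) and in 1 of 52 pLSOs (1.92%, 0.0487 to 10.3%), cell_28, whose Slc5a7 value was 2 TPM. Without the 3 neurons named above, these were 11 of 26 LOCs (42.3%) and 1 of 51 pLSOs (1.96%). All 3 were found in 3 LOCs (10.7%, 2.27 to 28.2%), cell_66, cell_67 and cell_74, and in no pLSO (up to 5.77%). The most frequent state of pLSOs was Ache alone, in 28 of 52 (53.8%, 39.5 to 67.8%), followed by no member in 21 (40.4%, 27.01 to 54.9%). In LOCs, Ache alone was found in 8 of 28 (28.6%, 13.2 to 48.7%), Slc5a7 with Ache in 7 (25%, 10.7 to 44.9%), Slc5a7 alone in 4 and no member in 4. Ache alone fell to 6 of 26 LOCs (23.1%) without cell_57 and cell_76, and was at 28 of 51 pLSOs (54.9%) without cell_45. The 4 LOCs without any member, cell_59, cell_60, cell_64 and cell_80, had 1175 to 2332 detected genes (median 1879.5), and the 3 LOCs with all members had 2516 to 3143. Between them, LOCs with 1 member had 1585 to 4408 and those with 2 members 1532 to 3624 detected genes. In pLSOs the median was 2654 with no member and 2495.5 with 1 member.

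**Figure D3:**
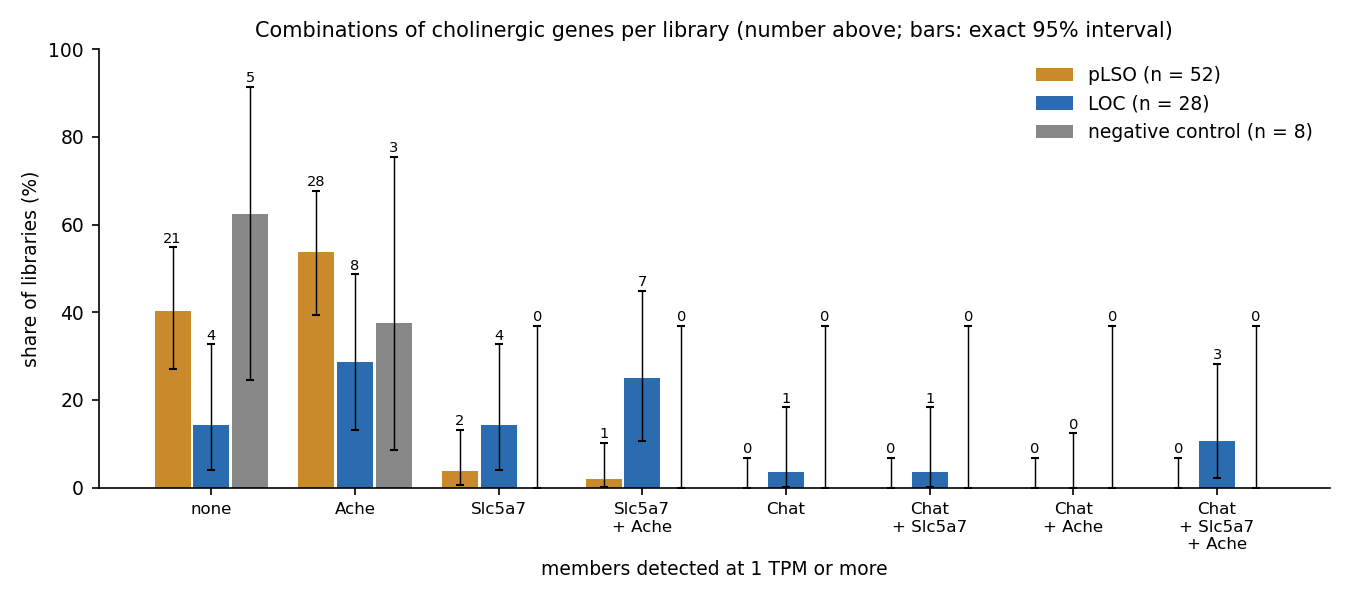
Share of libraries (%) with each combination of Chat, Slc5a7 and Ache at 1 TPM or more, for pLSOs, LOCs and negative controls, with exact 95% intervals and the number of libraries above each bar. Ache alone (28 of 52) and no member (21 of 52) make up most pLSOs, while 11 of 28 LOCs hold 2 or more members.

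Taking Chat and Slc5a7 together as the genes of a cholinergic terminal, 16 of 28 LOCs (57.1%, 37.2 to 75.5%) held at least 1 of them, against 3 of 52 pLSOs (5.77%, 1.21 to 15.9%). Without the 3 neurons the counts were 16 of 26 (61.5%) and 2 of 51 (3.92%). Chat and Slc5a7 met in 4 LOCs, which is 4 of the 5 LOCs with Chat and 4 of the 15 with Slc5a7. Their levels did not run together in these 4 neurons. Cell_74 was high in both (421 TPM of Chat and 324 TPM of Slc5a7), cell_86 had 136 and 34 TPM, and cell_66 and cell_67 had 169 and 333 TPM of Chat with 4 and 1 TPM of Slc5a7. The neuron of highest Chat, cell_70 with 770 TPM, had neither Slc5a7 nor Ache and held 1585 detected genes. Conversely, cell_58 and cell_77, with the highest Slc5a7 values of 594 and 561 TPM, were at 0 for Chat. Over 28 LOCs, Spearman correlations of TPM were 0.06 for Chat with Slc5a7, 0.04 for Chat with Ache and 0.15 for Slc5a7 with Ache.

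A value of 0 in 1 neuron has to be read beside genes that neurons share. Snap25, a vesicle fusion protein of all neurons, was found in 27 of 28 LOCs, but Syt1, the calcium sensor of transmitter release, in 16 of 28 and Rbfox3, the NeuN antigen, in 12 of 28. A LOC at 0 for Chat or Slc5a7 is thus a neuron in which the transcript was not detected. Absence of the transcript and a missed transcript cannot be told apart here. The same limit holds for pLSOs, where Chat was at 0 throughout and Slc5a7 in all but 3 neurons. Snap25 was found in 52 of 52 pLSOs, Syt1 in 46 of 52 and Rbfox3 in 16 of 52. The neuron markers Tubb3 and Stmn2 were found in 19 and 23 of 28 LOCs and in 39 and 49 of 52 pLSOs. In the negative controls, Syt1 and Rbfox3 were at 0, and Snap25 was found in 7 of 8, Stmn2 in 4 and Tubb3 in 2.

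Acetyl-CoA for the synthesis of acetylcholine is supplied from citrate, which Slc25a1 exports from mitochondria and Acly (ATP citrate lyase) cleaves in the cytosol, and both genes were higher in LOCs. Acly was detected in 25 of 28 LOCs and 25 of 52 pLSOs, with means of 989 and 115 TPM and a difference of 5.31 in mean log2(TPM + 1). In the negative controls it was found in 3 of 8, with a highest value of 50 TPM. The study listed Acly among its top LOC genes on these same libraries, so its difference is a description. Slc25a1 was detected in 14 of 28 LOCs and 13 of 52 pLSOs, with means of 1084 TPM (617 TPM without the highest neuron) and 168 TPM and a difference of 2.57. Of the 5 remaining genes of this list, 3 were higher in pLSOs. Over all genes, 4.68% were higher in LOCs by 1 or more and 6.99% in pLSOs. With 7 genes in the list, these counts are a description. Pdhb and Dlat, subunits of pyruvate dehydrogenase, and Cs, citrate synthase, had LOC minus pLSO differences of -1.45, -1.49 and -1.91, respectively. Pdha1 (-0.92) and Acss2 (-0.12) did not pass a difference of 1.

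Of 15 genes of choline uptake and phosphocholine metabolism, 10 were detected in at least 5% of neurons, of which 0 were higher in LOCs and 2 were higher in pLSOs, where the shares over all genes were 4.68% and 6.99%. With so few genes, a count of 0 is no result about the list. These were Chka, the first enzyme of phosphatidylcholine synthesis, with a LOC minus pLSO difference of -1.81, and Gpcpd1, which frees choline from glycerophosphocholine, with -1.13. The choline transporter-like gene Slc44a1 was found in 9 of 28 LOCs and 11 of 52 pLSOs (difference 0.86), and 1 negative control held 389 TPM of it. Slc44a2 was found in 0 of 28 LOCs and 10 of 52 pLSOs at no more than 21 TPM. Bche, which encodes the second cholinesterase, and Colq, the collagen tail that anchors acetylcholinesterase at the muscle endplate, were at 0 in all 80 neurons. Prima1, the membrane anchor of acetylcholinesterase in brain, was at 1 TPM in 1 Onset neuron and at 0 in all other neurons. Over these 3 lists together, 17 of 25 genes passed the filter, 2 were higher in LOCs and 5 in pLSOs (over all genes, 4.68% and 6.99%), and the median difference was -0.62 against -0.07 over all genes. At a difference of 2, the 2 genes higher in LOCs were still counted and the 5 higher in pLSOs went to 0.

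**Figure D4:**
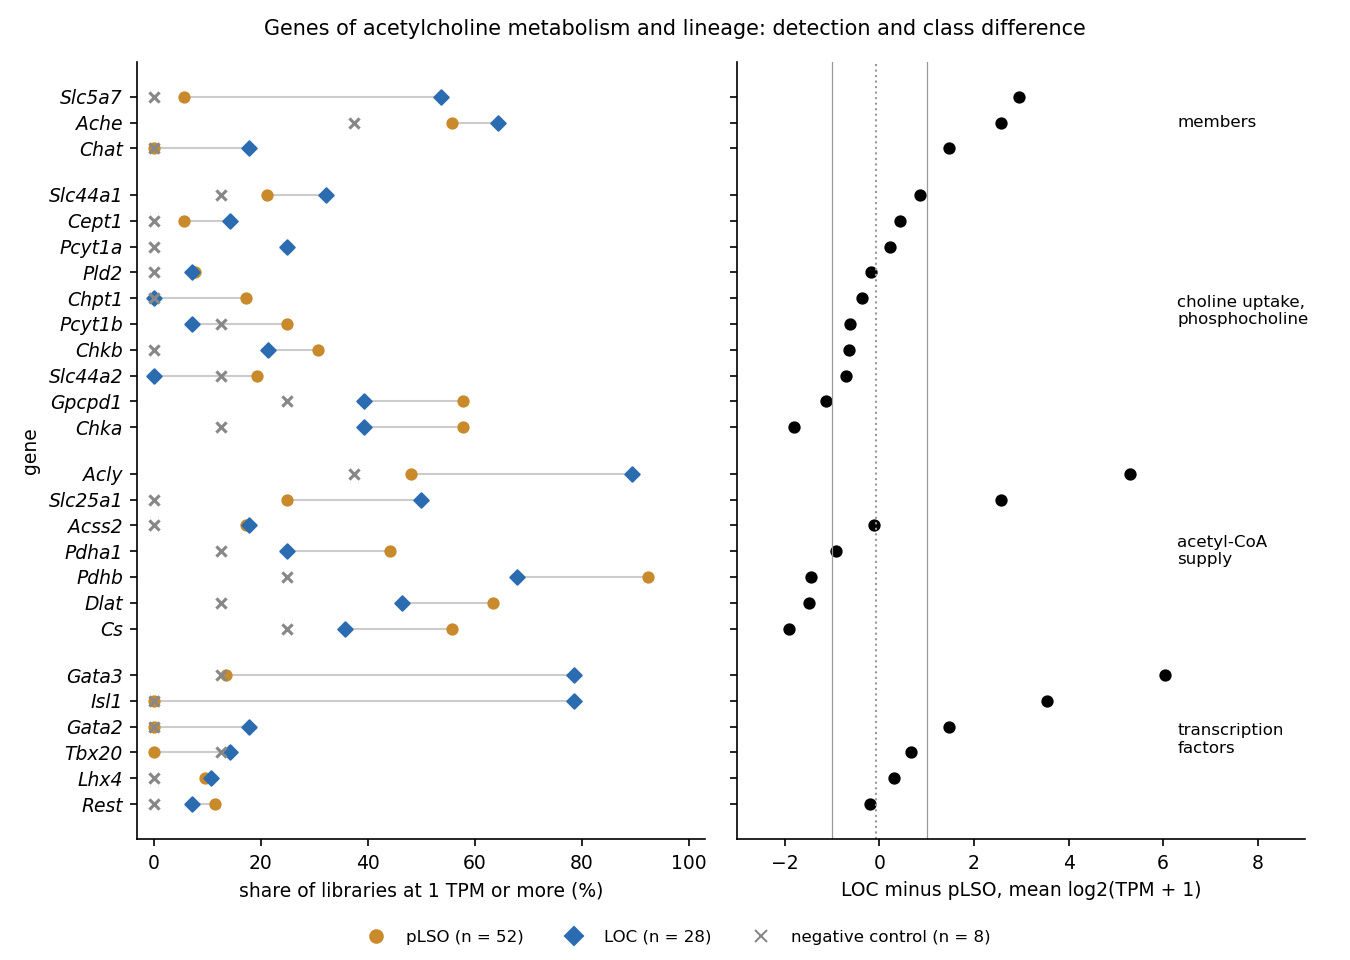
Left, share of libraries (%) at 1 TPM or more in pLSOs, LOCs and negative controls for each listed gene that was detected in at least 5% of neurons. Right, LOC minus pLSO difference of mean log2(TPM + 1), with lines at -1 and 1 and a dotted line at the median of all genes; the members, Acly, Slc25a1, Gata3, Isl1 and Gata2 lie beyond 1, and Chka, Gpcpd1, Cs, Dlat and Pdhb beyond -1.

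Of 13 transcription factors of cholinergic and motoneuron lineages, 5 (Lhx3, Lhx8, Mnx1, Gbx1 and Zic4) were at 0 in all 80 neurons, and 3 of the 6 that passed the filter were higher in LOCs, against 4.68% of all genes. Of these 3, Isl1 and Gata2 passed the filter through LOCs only and could not have differed the other way, so the count is a description. Isl1, a factor of motoneurons and olivocochlear neurons that the study also picked as a LOC marker on these libraries, was found in 22 of 28 LOCs with values up to 191 TPM and in 0 of 52 pLSOs. Gata3 was found in 22 of 28 LOCs and 7 of 52 pLSOs, with highest values of 4463 and 42 TPM. It too is among the top LOC genes that the study listed on these libraries. Gata2 was found in 5 of 28 LOCs and 0 of 52 pLSOs. All 5 LOCs with Chat held Isl1 (100%, 47.8 to 100%), as did 17 of the 23 LOCs without Chat (73.9%, 51.6 to 89.8%). Among LOCs with Slc5a7, 14 of 15 held Isl1 (93.3%, 68.1 to 99.8%), against 8 of 13 without it (61.5%, 31.6 to 86.1%). The LOCs without Chat and those without Slc5a7 include cell_57 and cell_76, in which Isl1 was at 0. The intervals overlap in both cases, and no test was made.

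All 16 LOCs with Chat or Slc5a7 held Calca, which encodes the peptide CGRP, at 307 TPM or more, and Acly, and 15 of the 16 held Isl1. Over all 28 LOCs, Calca was found in 26, Acly in 25 and Isl1 in 22. The shares of Calca and Acly thus lie near those of all LOCs. Calca was also found in 15 of 52 pLSOs (up to 58 TPM) and in 5 of 8 negative controls (up to 315 TPM). Among the 12 LOCs without either gene, cell_57 and cell_76 lacked Calca, Ucn and Isl1. Both had only 1 of the 6 LOC markers, and cell_76 held 307 TPM of Slc17a6, the vesicular glutamate transporter. Ache was their only member. Without these 2 neurons, Slc5a7 was found in 15 of 26 LOCs (57.7%), Chat in 5 of 26 (19.2%) and Ache in 16 of 26 (61.5%).

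**Figure D5:**
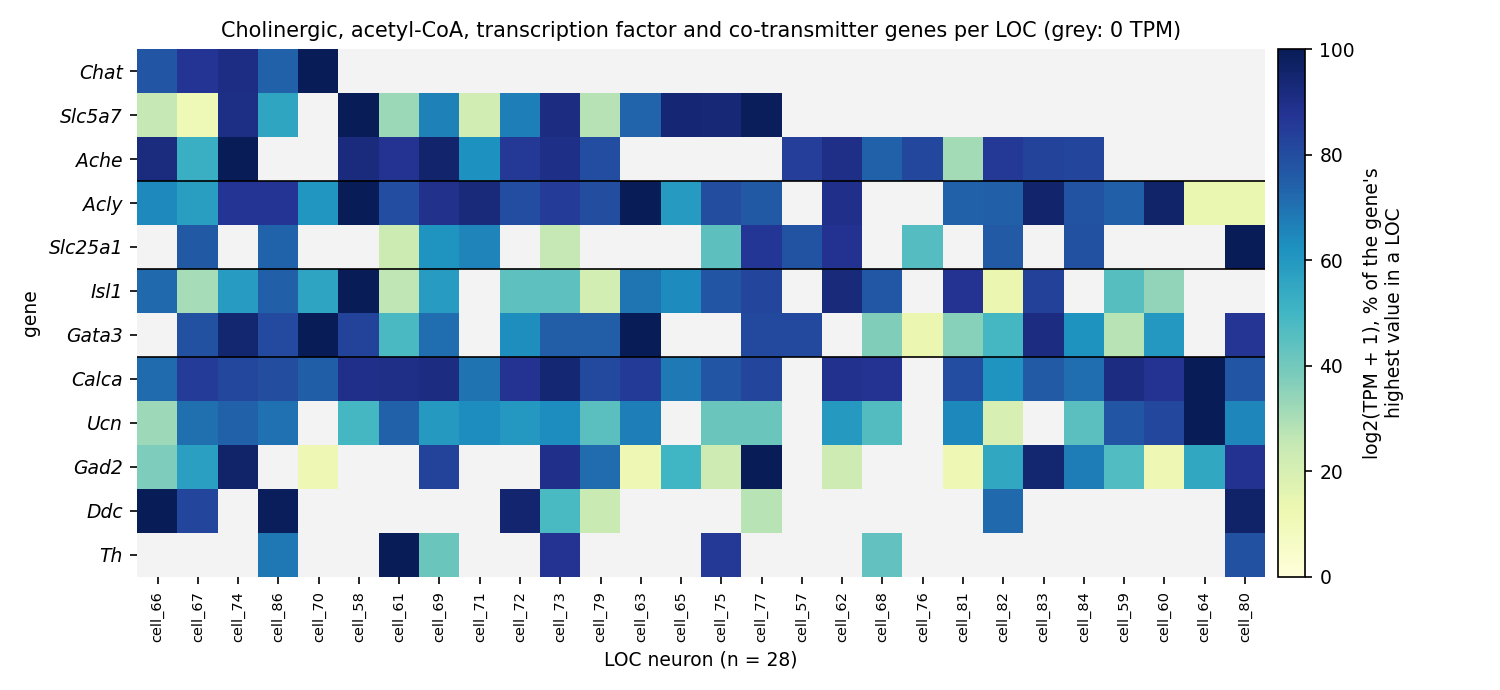
Heat map of 12 genes (rows) in 28 LOCs (columns), coloured by log2(TPM + 1) as a percentage of the highest LOC value of the same gene, with 0 TPM in grey, and columns ordered by Chat, Slc5a7 and Ache. Calca and Acly are coloured in all 16 neurons with Chat or Slc5a7 at the left, and in 26 and 25 of all 28 LOCs. The neurons cell_57 and cell_76 are grey for Calca, Ucn and Isl1.

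The transmitter genes of LOCs were found in the neurons with Chat without a fixed partner. Calca was found in 5 of 5, Ucn (urocortin) in 4 of 5, Gad2 (the GABA synthesizing enzyme GAD65) in 4 of 5, Ddc (DOPA decarboxylase) in 3 of 5 and Th (tyrosine hydroxylase) in 1 of 5. The 4 values of Gad2 were 1, 9, 32 and 340 TPM, where negative controls held it in 3 of 8 libraries at up to 28 TPM. The lowest of the 4 values of Ucn was 5 TPM, where negative controls reached 6 TPM. In the 23 LOCs without Chat the corresponding counts were 21, 19, 16, 6 and 6. Ddc was the gene with the widest gap, at 60% (14.7 to 94.7%) with Chat and 26.1% (10.2 to 48.4%) without, and these intervals overlap. The 3 values of Ddc in neurons with Chat were 470 TPM in cell_67, 1693 TPM in cell_86 and 1827 TPM in cell_66. Among LOCs with Slc5a7, Calcb, which encodes the second CGRP peptide, was found in 11 of 15 (73.3%, 44.9 to 92.2%), against 4 of 13 without it (30.8%, 9.09 to 61.4%). With Chat, Calcb went the other way, in 2 of 5 against 13 of 23 without Chat. In LOCs with and without Slc5a7, Calca was found in 15 and 11 and Ucn in 14 and 9. Ddc was found in 7 and 2 and Th in 5 and 2. Gad2 (10 and 10), Slc17a6 (3 and 4) and Slc6a5, the glycine transporter GlyT2 (2 and 4), had smaller shares with Slc5a7. The LOCs without Chat and those without Slc5a7 include cell_57 and cell_76, in which Calca, Calcb, Ucn, Gad2, Ddc and Th were at 0. Slc17a6 was found in 1 of 5 LOCs with Chat at 1 TPM.

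The genes most like each member over 80 neurons, by Spearman correlation of TPM among 9450 named genes detected in at least 5 neurons, were listed by a fixed rule of 5 per member. For Slc5a7 they were Synpr (0.66), Col4a3 (0.65), Isl1 (0.62), Nckap5 (0.60) and Bex1 (0.59), and Col4a3 was found in all 15 LOCs with Slc5a7 and in no pLSO. Col4a3 and Isl1 are LOC markers, so these correlations carry the difference between the classes. For Chat the nearest was Pcsk1, a protease that cuts peptide precursors, with 0.72, which rests on 6 neurons with Pcsk1, of which 4 held Chat. Next came Rbm47 (0.50), Gtpbp8 (0.47), Ints12 (0.47) and R3hcc1l (0.44). For Ache the values were lower, with Exoc3 (0.46), Chn2 (0.46), Tpgs1 (0.43) and 2310033P09Rik (0.41) given here. These are descriptions over cells that share a class and a depth, and most values of Chat are 0.

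Electrophysiological features of the 5 LOCs with Chat are set beside the range of all 28 LOCs. The 5 neurons are part of that range, so none can lie outside it. With so few neurons, a narrower span than that of 28 is no result. Their membrane time constants were 8.5 ms in cell_74, 8.9 ms in cell_70, 13.6 ms in cell_66, 19.7 ms in cell_67 and 20.9 ms in cell_86, where all LOCs ranged from 6.8 to 35.7 ms with a median of 19.85 ms. Input resistance was recorded in 4 of them, at 342.7, 388.9, 551.7 and 872.1 MΩ, within 58.8 to 903.9 MΩ over 27 LOCs (median 549.2 MΩ). In the same 4 neurons capacitance was between 0.024 and 0.036 nF, below the median of 0.037 nF over 27 LOCs (0.012 to 0.159 nF). The rheobase of all 5 did not exceed 50 pA, as in every other LOC but cell_57 with 300 pA (median over LOCs 0). Amplitudes of spontaneous inhibitory currents in the 5 were 15.5 to 20 pA, within 12.6 to 29.1 pA over 27 LOCs. Action potential halfwidths were between 0.56 and 1.74 ms, within 0.48 to 3.37 ms over all LOCs. Over 16 features, Spearman correlations across LOCs ran from -0.35 to 0.30 for Chat and from -0.34 to 0.24 for Slc5a7. For Ache they ran from -0.58 to 0.32, and the lowest was that with input resistance over 27 LOCs. It is 1 of 48 values computed over the same neurons and is given without a test.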

How the data were processed

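Libraries, 1 for each recorded neuron, were made from aspirated cytoplasm with a modified Smart-seq2. The authors checked reads with FastQC, trimmed them with Trim Galore 0.4.2, aligned them to mm10 with STAR, marked duplicates with Picard 1.115 and counted genes with featureCounts, per the paper and the submitters' processing notes. The deposited score values are TPM that the authors rounded to whole numbers. The files hold no counts, so the depth is unknown. Gene names and positions came from Gencode vM21, in which 37570 of 38887 genes matched, and promoters from RefSeq. The submitted annotation release may differ.

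Groups follow the firing pattern labels. Left out were 8 of 96 libraries whose labels an earlier comparison with the study's cluster means had put in doubt, which was not repeated here. The members, gene lists and left-out libraries were chosen with earlier results of these data known, and cell_45, cell_57 and cell_76 were singled out after their values were seen. Named were the members, genes of the lists for the pathway, lineage, transmitters and markers, and the 5 genes most like each member, of which a few are not reported here. Differences are of mean log2(TPM + 1) in LOCs minus pLSOs over the genes found in 5% of neurons or more. Alternatives were other detection thresholds, pseudocounts of 0.1 and 10, libraries rescaled to widely detected genes and left-out or restored neurons. The smallest neighbouring value is the lowest positive TPM of a library within 200 rows on each side, and where it is 1 TPM it is the limit of rounding. The computation of the difference was checked on simulated data. SciPy 1.17.1, NumPy 2.4.6, pandas 2.3.3 and matplotlib 3.10.9 were run under Python 3.11.15.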

Additional observations from a re-analysis of the deposited data

Results flagged for a closer look

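Libraries that the groups leave out carried cholinergic transcripts. The library cell_54, labelled as a Sustained neuron, held 386 TPM of Slc5a7 and 2026 TPM of Ache, above every negative control and above every one of the 11 Sustained neurons analysed, with Chat at 0. It also held 1887 TPM of Calca, 28 TPM of Ucn and 2917 TPM of Acly, and 0 TPM of Isl1 and of the pLSO marker Spp1. The library cell_85, labelled as a LOC, held 435 TPM of Slc5a7, while Chat and Ache were at 0.

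In the negative controls, 1 Ache value of 73 TPM stood far from the other 7, which lay between 0 and 17 TPM. Chance flags about 1 in 20 such groups, and 2 were examined. The 73 TPM were 1.07 times the smallest neighbouring value of that library, which had 808 detected genes.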

How the results depend on the processing

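Over 14 results and 90 alternatives, 82 values stayed within the spread of the main value, 8 moved and 0 reversed. The share of pLSOs with Ache moved from 55.8% to 38.5% at 5 TPM, 36.5% at 10 TPM, 26.9% above the highest negative control and 36.5% above 3 times the smallest neighbouring value, an alternative chosen after seeing the data. The share of pLSOs with 2 or more members went from 1.92% to 0 at 5 TPM, at 10 TPM and above 3 times the smallest neighbouring value, and the 5 pathway genes higher in pLSOs went to 0 at a difference of 2. The causes follow from the stricter thresholds. Each LOC share stayed within its interval, at 17.9% for Chat under each threshold and between 35.7% and 57.7% for Slc5a7, but LOCs with both Chat and Slc5a7 went from 4 of 28 to 2 of 28 at 5 TPM. The class differences lay between 0.89 and 2.06 for Chat, 1.60 and 4.50 for Slc5a7 and 1.91 and 2.97 for Ache, the ends being pseudocounts of 10 and 0.1, so that at 10 Chat fell below a difference of 1 and Ache lay above Slc5a7. The intervals reflect the number of neurons only, and the read depth behind a value is unknown. No paired analysis was possible because the labels give no shared replicate numbers across groups and no test was made.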
